A study of Drosophila melanogaster with 32 samples.

Results

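The sex difference in gene, repeat and satellite RNA was described within Zhr1 flies, which lack about 5 Mbp of the pericentromeric 359-bp satellite array on the X chromosome. The libraries were chosen by their labels alone: 4 of Zhr1 males and 4 of Zhr1 females, 8 of the 32 libraries of the series. They were set beside 4 libraries of wild-type males and 4 of wild-type females of the Oregon R strain. Each library was whole-fly RNA from 10 pooled adults, 3 taken 6 to 8 h, 4 taken 14 to 16 h and 3 taken 22 to 24 h after hatching, and the females were virgin. Flies of both genotypes were raised at 25 °C and carried no treatment or transgene. Per the study's methods, Zhr1 males carried a Y chromosome of wild-type structure, and the strains were not brought to a common background, so that the deletion and the rest of the Zhr1 background cannot be told apart. All RNA was from young adults with their gonads, and in such bulk samples fewer cells of a type and less RNA per cell cannot be told apart.

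In Drosophila melanogaster the sexes differ in RNA mainly through the gonads. The testis transcribes many genes for meiosis and sperm assembly, including the giant fertility genes of the Y chromosome, while the ovary loads the egg with maternal RNA and yolk receptors and wraps it in vitelline membrane and chorion. In somatic cells the male-specific lethal (MSL) complex, which contains the roX1 and roX2 RNAs, increases transcription of the single male X. The 359-bp satellite family is an AT-rich tandem repeat with its main array near the X centromere, the array removed in Zhr1. Its other variants lie at chromosome arms 2L and 3L and as short euchromatic tandems along the X.

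The monomer of the array that Zhr1 lacks is shown because the counted satellite blocks were found by similarity to it and its relatives. It was 359 bp long with 69.1% A+T in the query set that accompanied the study, and its first 300 bases are written 5′ to 3′ in lower case with no part marked.
X-heterochromatic monomer, bases 1 to 300: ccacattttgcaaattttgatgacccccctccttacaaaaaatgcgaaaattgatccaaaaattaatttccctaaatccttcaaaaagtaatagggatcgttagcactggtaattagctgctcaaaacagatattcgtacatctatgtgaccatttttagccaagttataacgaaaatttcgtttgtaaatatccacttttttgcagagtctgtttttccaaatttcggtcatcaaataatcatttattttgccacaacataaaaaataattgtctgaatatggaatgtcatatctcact
Of the other query entries, the 260-bp entry shared 89.5% of its bases with this monomer, the 353-bp entry 87.3% and the 360 entry 71.9%.

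Gene counts, in M (1e6 counts), summed to 13.5 to 18.5 M in Zhr1 males, 13.3 to 17.6 M in Zhr1 females, 27.1 to 38 M in wild-type males and 26.8 to 31.4 M in wild-type females. Values are given as CPM, counts scaled to 1e6 gene counts of a library after correction of the library sizes (TMM), and libraries 1 to 4 of each group are listed in order. The numbers only name libraries. Nothing in the labels says whether the 4 libraries of a group came from separate crosses, so p-values measure the spread between these libraries. The RNA of the sex labels matched in all 16 libraries: roX1 was at 949.8 to 1088 CPM in Zhr1 males, against 3.36 to 4.71 CPM in Zhr1 females, and at 936 to 1062 CPM in wild-type males, against 2.63 to 4.34 CPM in wild-type females. Some libraries stood apart within their group. Wild-type male 2 held yolk protein RNA at 7.02% of the wild-type female mean (the other 3 at 0.17 to 0.20%), Zhr1 male 2 held vitelline membrane RNA at 0.865% of the Zhr1 female mean (the other 3 at 0.098 to 0.10%), and Zhr1 female 4 was almost without chorion RNA.

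Genes were tested for a sex difference within Zhr1 (males over females, log2 scale) with edgeR's quasi-likelihood test, adjusted by the Benjamini-Hochberg method over the 13753 genes tested. In Zhr1, 5466 genes (39.7%) were higher in males and 4146 (30.1%) were higher in females at an adjusted p below 0.05. In wild type, 4355 (31.7%) were higher in males and 4253 (30.9%) in females. With a fold of at least 2 as well, 3301 genes (24.0%) were higher in Zhr1 males and 1745 (12.7%) in Zhr1 females, against 3211 (23.3%) and 1202 (8.74%) in wild-type males and females.

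Most of the bias was shared by the genotypes. Of the genes higher in Zhr1 males, 3823 were also higher in wild-type males (69.9% of the Zhr1 list and 87.8% of the wild-type list), and 3247 were higher in females of both (78.3% and 76.3% of the lists). Another 124 genes were higher in Zhr1 males but in wild-type females, and 70 were higher in Zhr1 females but in wild-type males. The log2 fold changes of the genotypes followed each other across genes (Pearson's r 0.95, Spearman's rho 0.84, n = 13753), as a description, since genes are not independent replicates. The difference between the genotypes' sex effects, Zhr1 log2 fold minus wild-type log2 fold, was called for 1422 genes (10.3%) towards males and 1866 (13.6%) towards females. The direction split of these calls depended on the scaling: 43.2% were towards males, against 25.2% with library size alone and 30.8% with relative log expression (RLE) factors. The median log2 sex difference over all genes was 0.18 in Zhr1 and −0.02 in wild type, and it moved to 0.032 in Zhr1 with library size alone and to 0.102 in wild type with RLE factors, so small differences are read relative to these medians.

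**Figure D1:**
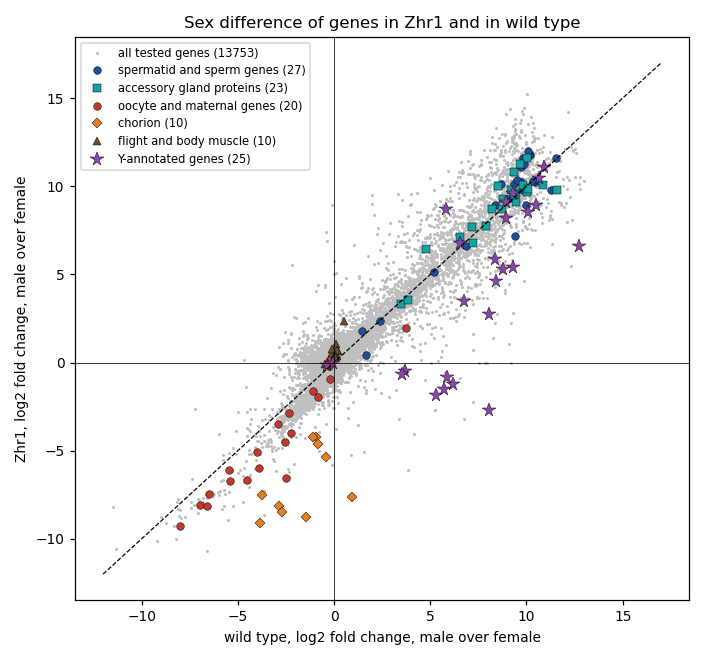
Log2 fold change of males over females in wild type (horizontal axis) and in Zhr1 (vertical axis) for each of the 13753 tested genes, with coloured points for 5 gene lists and for genes annotated to the Y chromosome and a dashed line where both genotypes are equal. The sperm and accessory gland genes sit at the upper right in both genotypes, chorion genes lie far lower on the Zhr1 axis than on the wild-type axis, and several Y-annotated genes lie well below the line.

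Genes of dosage compensation were higher in Zhr1 males about as often as all genes (39.7%, and 30.1% for Zhr1 females). Of 8 tested dosage compensation genes, 3 were higher in Zhr1 males (roX1, roX2 and msl-2, the subunit that limits the complex to males) and 4 in Zhr1 females (msl-1, msl-3, mof and Clamp, of which mof encodes the histone acetyltransferase). The X-linked roX1 gene (chromosome X, 3857230 to 3862697 in release 6 coordinates, as all below) had a log2 fold change of 7.95 ± 0.14 in Zhr1 and 8.08 ± 0.14 in wild type. Values are estimate ± SE, here and below, and the SE of an edgeR estimate is approximate. No difference was called for roX1 by edgeR's test (−0.13, adjusted p = 0.609). The X-linked switch gene Sxl had 117, 105, 128 and 137 CPM in Zhr1 males, against 248, 282, 297 and 282 CPM in Zhr1 females. Its log2 fold change was −1.18 ± 0.09 in Zhr1 and −1.25 ± 0.09 in wild type. The male and female values of Sxl did not overlap in either genotype. Among 10 sex determination genes, 2 were higher in Zhr1 males (dsx at 0.80 and fru at 0.21 on the log2 scale) and 8 in Zhr1 females, beside 39.7% and 30.1% of all genes.

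A pair of MSL subunits had a larger female bias in Zhr1. The scaffold gene msl-1 had 45.4, 42.1, 42.4 and 37.3 CPM in Zhr1 males, against 122, 119.7, 125 and 128 CPM in Zhr1 females. Wild-type males had 42.5, 43.2, 35.7 and 38.3 CPM and 95, 77.9, 78.9 and 84.2 CPM in wild-type females. The male values of both genotypes overlapped, while every Zhr1 female was above every wild-type female. The difference in log2 fold change was −0.49 ± 0.12 for msl-1 (adjusted p = 0.00634) and −0.67 ± 0.12 for mof (adjusted p = 0.00141), for which Zhr1 males had 12.2 to 15.6 CPM, against 25.1 to 27.3 CPM in Zhr1 females.

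Male germline and accessory gland genes were strongly male-biased in Zhr1. All 12 tested spermatocyte transcription factor genes, all 27 spermatid and sperm genes, all 13 testis proteasome genes and all 23 accessory gland genes were higher in Zhr1 males, beside 39.7% of all genes, and the same numbers were called in wild-type males. The median log2 fold changes in Zhr1 and wild type were 4.12 and 3.91 for the spermatocyte factors, 10.13 and 9.73 for the spermatid and sperm genes, 7.20 and 8.60 for the testis proteasome genes, and 9.48 and 9.17 for the accessory gland genes. With genes that had no count in females set at their bound, the medians were 4.12 and 3.91, 10.02 and 9.70, 6.09 and 6.51, and 9.26 and 8.74 in the same order of lists, so that the testis proteasome genes alone of the 4 lists had the lower median in Zhr1. Over all genes the medians were 0.18 in Zhr1 and −0.02 in wild type. These lists were drawn up from textbook roles with results of these data already known.

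Sperm leucyl aminopeptidases and accessory gland proteins were the most abundant of these RNAs. S-Lap1 (chromosome 3L, 8617235 to 8619474), a major protein of the sperm tail, had 1605, 1857, 1755 and 2145 CPM in Zhr1 males, against 1.56, 1.41, 1.1 and 1.52 CPM in Zhr1 females. Wild-type males had 1801, 1891, 1756 and 1883 CPM, against 2.35, 2.93, 2.35 and 2.32 CPM in wild-type females. The male ranges overlapped and the female ranges did not. The log2 fold changes were 10.37 ± 0.14 in Zhr1 and 9.52 ± 0.13 in wild type, a difference of 0.85 ± 0.16 (adjusted p = 0.00196). The aminopeptidase gene loopin-1 had 1148, 1319, 1227 and 1531 CPM in Zhr1 males, against 0.498, 0.38, 0.42 and 0.346 CPM in Zhr1 females, and its difference from wild type was 1.77 ± 0.21 (adjusted p = 7.41e-05). Acp36DE, a seminal fluid protein needed for sperm storage, had 1891, 1844, 1523 and 1851 CPM in Zhr1 males, against 4.3, 5.59, 3.31 and 3.74 CPM in Zhr1 females, with no difference from wild type called (0.50, adjusted p = 0.0629). As a set, spermatid and sperm RNA in single Zhr1 females stood at 1.53 to 1.805% of the Zhr1 male mean, against 1.78 to 2.13% in wild-type females of the wild-type male mean. The accessory gland RNA stood at 0.51 to 0.61% in Zhr1 females, against 0.64 to 0.71% in wild-type females.

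The 8 genes of largest fitted male bias in Zhr1 were CG31948, Pglym87, schuy, CG7309, Crtp, CG13700, CG15128 and Cdlc2. Each of the 8 had 0 counts in all 4 Zhr1 females, so their folds are bounds set at 3 counts per library. CG31948 had 180.4, 220.1, 193 and 236 CPM in Zhr1 males and was at least 1162-fold higher in them. The bounds of the other 7 ran down to at least 467-fold for Cdlc2, a cytoplasmic dynein light chain. In wild-type females the same 8 genes had between 0 and 0.455 CPM in more deeply sequenced libraries. The difference test called CG31948 (adjusted p = 0.0226) and schuy (adjusted p = 0.00347), where the Zhr1 female group at 0 gives no size.

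A few male genes differed more. Of the 27 tested spermatid and sperm genes, 6 shifted towards males and 2 towards females in Zhr1, beside 10.3% and 13.6% of all genes. Mst87F, a sperm tail protein, had 108, 159, 125 and 173 CPM in Zhr1 males, against 1.43, 0.977, 0.472 and 1.04 CPM in Zhr1 females. Wild-type males had 109, 126, 95.4 and 112 CPM, against 0.07, 0.196, 0.0722 and 0.31 CPM in wild-type females. Its male values overlapped between the genotypes, and all 4 Zhr1 females were above all 4 wild-type females. The log2 fold changes were 7.19 ± 0.25 in Zhr1 and 9.39 ± 0.30 in wild type, a difference of −2.20 ± 0.48 (adjusted p = 0.0041). Of the testis proteasome genes, Prosalpha6T and Prosbeta5R1 were shifted likewise (adjusted p = 0.00101 and 0.0225), with 0.315 to 1.38 CPM and 0 to 0.277 CPM in Zhr1 females, against 0 to 0.105 CPM and 0 to 0.0652 CPM in wild-type females.

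The ejaculatory duct and bulb genes were shifted towards males. All 5 were higher in Zhr1 males and 4 in wild-type males, beside 39.7% and 31.7% of all genes, and 4 of the differences passed the test in the male direction, beside 10.3%. Est-6, a secreted esterase, had 460.3, 419, 353 and 316 CPM in Zhr1 males, against 82.6, 84.6, 53.9 and 67.7 CPM in Zhr1 females. Wild-type males had 199, 344, 196 and 218 CPM, against 174, 114, 128 and 144 CPM in wild-type females. It was high in Zhr1 males and low in Zhr1 females relative to the same sex of wild type, with log2 fold changes of 2.42 ± 0.20 and 0.77 ± 0.19 and a difference of 1.65 ± 0.27 (adjusted p = 0.000666). Ebp, a bulb protein and among the most abundant male RNAs, had 3155, 2930.5, 2736 and 3218 CPM in Zhr1 males, against 1.93, 1.68, 1.36 and 1.11 CPM in Zhr1 females, and differed by 0.92 ± 0.22 (adjusted p = 0.00716), a call that was lost when all 32 libraries of the series were fitted.

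**Figure D2:**
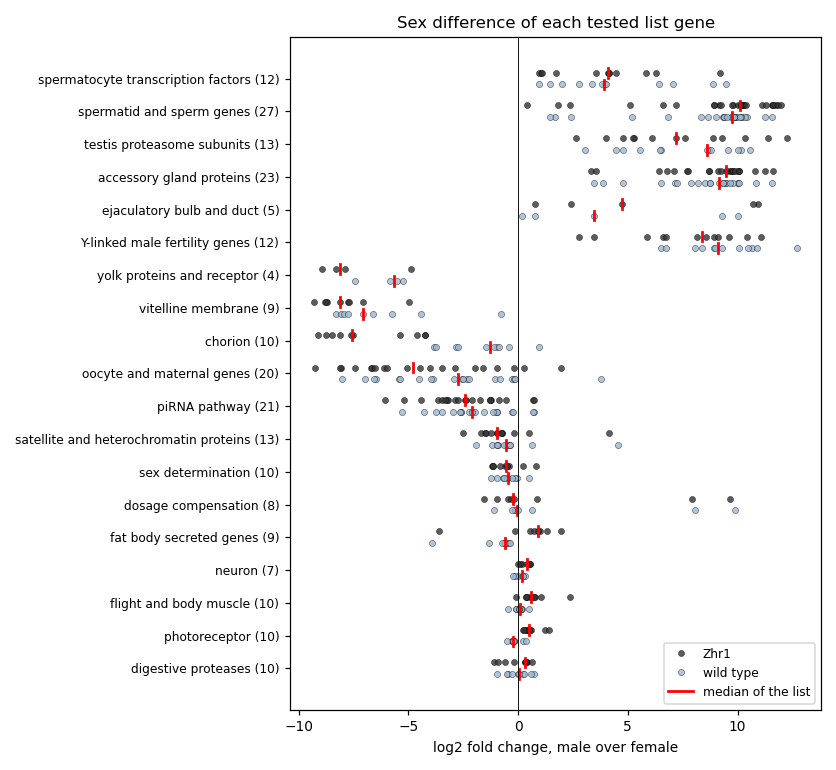
Log2 fold change of males over females for each tested gene of 19 lists, Zhr1 in dark points above wild type in light blue points, with a red tick at each median. The chorion median was −7.56 in Zhr1 and −1.27 in wild type, the oocyte median −4.77 and −2.74, and the muscle median 0.60 and 0.07.

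Egg-forming genes carried the female side. All 4 yolk and yolk receptor genes, 9 of 9 vitelline membrane genes and 10 of 10 chorion genes were higher in Zhr1 females, beside 30.1% of all genes. In wild type the counts were 4, 8 and 0. Summed yolk RNA was 50.8 to 141 CPM in Zhr1 males and 6572 to 11051 CPM in Zhr1 females, against 8.91 to 376 CPM and 3138 to 7411 CPM in wild-type males and females. Yp1, a yolk protein made in fat body and follicle cells, had 1.36, 5.36, 0.391 and 0.607 CPM in Zhr1 males, against 1031, 710.3, 807 and 1238 CPM in Zhr1 females. The log2 fold change of Yp1 was −8.95 ± 1.45 in Zhr1 and −5.51 ± 1.18 in wild type, where male 2 had 57.7 CPM and the other 3 males 0.298 to 0.669 CPM. The sexes did not overlap in either genotype.

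Chorion RNA separated the genotypes through some of the Zhr1 females. Cp36, an early chorion protein, had 0, 0.993, 0.112 and 0.0759 CPM in Zhr1 males, against 204.8, 169, 274 and 0.346 CPM in Zhr1 females. In wild-type females it had only 0.7, 0.717, 0.289 and 0.387 CPM. The late chorion gene Cp18 had 172, 0.326, 524 and 0.484 CPM in Zhr1 females, so that females 1 and 3 were high and females 2 and 4 were near the Zhr1 male values of 0.447 to 2.12 CPM. The summed chorion RNA was 5.63 to 16.5 CPM in Zhr1 males and 5.81 to 2294 CPM in Zhr1 females, against 3.84 to 5.11 CPM and 8.52 to 9.42 CPM in wild-type males and females. Differences from wild type were called for 3 of the 10 chorion genes, all towards females, beside 13.6% of all genes: Cp18 (−8.56 ± 2.72, adjusted p = 0.0309), yellow-g and yellow-g2. CG15570, which the study counts among genes of eggshell formation, was uneven as well. It had 12.6, 18.8, 68.7 and 0 CPM in Zhr1 females and 0.303 to 1.32 CPM in Zhr1 males (difference −6.64 ± 1.61, adjusted p = 0.00743). Vm26Aa, a vitelline membrane protein, had 983, 378, 902 and 1107 CPM in Zhr1 females, and so was high in female 4 as well.

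Oocyte and maternal genes were often more female-biased in Zhr1 than in wild type. Of 20 tested, 17 were higher in Zhr1 females and 1, exu, in Zhr1 males, the same numbers as in wild type, but the median log2 fold change was −4.77 in Zhr1 and −2.74 in wild type, and 12 of the 20 differences passed the test towards females, beside 13.6% of all genes. The summed level was 1119 to 1387 CPM in Zhr1 males and 2658 to 3567 CPM in Zhr1 females, against 1174 to 1264 CPM and 1389 to 1961 CPM in wild-type males and females. The mitotic cyclin gene CycB, an abundant ovarian RNA that is not on this list, had 31.9, 41.3, 35.3 and 46.2 CPM in Zhr1 males, against 1013, 719, 976 and 1000.4 CPM in Zhr1 females. Wild-type males had 35.8, 40.7, 38.3 and 36.6 CPM, against 529.9, 394, 359 and 403 CPM in wild-type females. Males of the genotypes overlapped, and every Zhr1 female was above every wild-type female. The log2 fold changes were −4.59 ± 0.15 and −3.48 ± 0.15, a difference of −1.11 ± 0.19 (adjusted p = 0.000943).

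Among members of the oocyte list, the RNA helicase gene vas had 94.4, 73.4, 82.1 and 98 CPM in Zhr1 females, against 45, 32.3, 32.2 and 34.9 CPM in wild-type females, and 1.84 to 3.84 CPM in Zhr1 males (difference −1.07 ± 0.29, adjusted p = 0.0133). The translational repressor gene nanos differed by −2.12 ± 0.50, the meiotic Polo inhibitor gene mtrm by −2.09 ± 0.32, and the egg activation gene png by −1.92 ± 0.36. Its partner gene plu, with 0 to 0.152 CPM in Zhr1 males, 4.45 to 8.03 CPM in Zhr1 females and 1.41 to 2.09 CPM in wild-type females, had a difference adjusted p of 0.000942. For osk, which nucleates the germ plasm, Zhr1 females had 848, 786, 873 and 1005 CPM and wild-type females 570.2, 493, 424 and 471 CPM, but the male values were low and uneven (0.296, 4.04, 0.782 and 0.683 CPM in Zhr1 males), and the difference did not pass the test (−1.26 ± 1.05, adjusted p = 0.404). exu, a gene of bicoid RNA localization that is also used in the testis, had 729, 833, 746 and 934 CPM in Zhr1 males, against 259.9, 143, 218 and 226 CPM in Zhr1 females. In wild-type females it had 87.8, 47.2, 46.3 and 59 CPM. Its log2 fold change was 1.94 ± 0.19 in Zhr1 and 3.76 ± 0.20 in wild type (difference −1.83 ± 0.26, adjusted p = 0.00029). Send1, a secreted protease of the female spermatheca, had 153, 207, 170.5 and 201 CPM in Zhr1 females, a log2 fold change of −10.12 ± 0.64, and did not differ in its test from wild type (−0.95, adjusted p = 0.63).

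Genes of the piRNA pathway and of heterochromatin were mostly female-biased in both genotypes. Of 21 piRNA genes, 19 were higher in Zhr1 females and 2 (Hen1 and papi) in Zhr1 males, beside 30.1% and 39.7% of all genes, and 11 of the differences passed the test towards females, beside 13.6%. In wild type 18 were higher in females and 2 in males. The summed level was 230 to 244 CPM in Zhr1 males and 867 to 1091 CPM in Zhr1 females, against 223 to 242 CPM and 630 to 772 CPM in wild-type males and females. For aub, a Piwi protein of the germline, the difference was −1.06 ± 0.19 (adjusted p = 0.00136), while piwi, which also acts in ovarian somatic cells, had 123, 118, 122 and 143 CPM in Zhr1 females, against 119.9, 124, 99.9 and 107 CPM in wild-type females, and no called difference (−0.78, adjusted p = 0.131). Of 13 genes for satellite-binding and heterochromatin proteins, 10 were higher in Zhr1 females and 2 (Pof and Lhr) in Zhr1 males, beside 30.1% and 39.7% of all genes. In wild type these numbers were 11 and 2. Their median log2 fold change was −0.94 in Zhr1 and −0.55 in wild type, and 5 differences (beside 13.6% of all genes) were called towards females, among them D1, Su(var)3-9, Top2 and HP5. With library size alone 9 were called.

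D1 encodes an AT-hook protein that binds AT-rich satellites including the 359-bp family. It had 65.5, 71.1, 64.4 and 66.7 CPM in Zhr1 males, against 128, 121, 129.8 and 142 CPM in Zhr1 females. Wild-type males had 67.7, 57.3, 58.2 and 60 CPM, against 93.7, 88.5, 86 and 88.5 CPM in wild-type females. The Zhr1 females were the highest of the 4 groups with no overlap, and the difference was −0.41 ± 0.10 (adjusted p = 0.00631). Pof (chromosome 2R, 24669397 to 24671577) encodes the protein POF, which binds genes of chromosome 4. It had 236, 283, 256 and 309.7 CPM in Zhr1 males, against 13.9, 12.5, 17.5 and 17.6 CPM in Zhr1 females. Its log2 fold change was 4.14 ± 0.11 in Zhr1 and 4.54 ± 0.12 in wild type, and the difference did not pass the test (−0.39, adjusted p = 0.058).

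Muscle and eye genes were shifted towards males in Zhr1. Of 10 muscle genes, 9 were higher in Zhr1 males and none in Zhr1 females, beside 39.7% of all genes, whereas in wild type none was higher in males and 1 in females. Their summed level was 60128 to 76513 CPM in Zhr1 males and 43960 to 53465 CPM in Zhr1 females, against 67667 to 83110 CPM and 63418 to 78207 CPM in wild-type males and females. The Zhr1 females were the low group. Differences passed the test for 7 of the 10, all towards males, beside 10.3% of all genes, and for 4 of 10 with library size alone or RLE factors. The flight muscle actin gene Act88F had 6787, 6185, 6191 and 4117 CPM in Zhr1 males, against 3502, 3239, 2326 and 2216 CPM in Zhr1 females. Wild-type males had 7234, 9157, 8264 and 9642 CPM, against 6892, 8970.1, 6752 and 9720.2 CPM in wild-type females. The sexes were apart in Zhr1 and overlapped in wild type, with log2 fold changes of 1.05 ± 0.18 and 0.09 ± 0.17 and a difference of 0.96 ± 0.25 (adjusted p = 0.0105). For the myosin heavy chain gene Mhc the difference was 0.48 ± 0.16 (adjusted p = 0.0441), a call that was lost under 18 of the alternatives tried.

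Of 10 photoreceptor genes, 7 were higher in Zhr1 males and none in Zhr1 females, beside 39.7% and 30.1% of all genes, none in wild-type males and 1 in wild-type females. Of the differences, 8 were called towards males, beside 10.3% of all genes (4 with library size alone). ninaE, the main rhodopsin gene, had 765, 785, 887 and 709 CPM in Zhr1 males, against 503, 579, 733 and 487 CPM in Zhr1 females, with a log2 fold change of 0.45 ± 0.15 in Zhr1, −0.28 ± 0.15 in wild type and a difference of 0.73 ± 0.21 (adjusted p = 0.0195). Of 7 neuron genes, 4 (nSyb, Syt1, brp and Rdl) were higher in Zhr1 males, beside 39.7% of all genes, and none in wild-type males. No difference between the genotypes passed the test for them. Of 9 fat body genes, 3 were higher in Zhr1 males, a share below that of all genes, and 1 in Zhr1 females. For 2 of them the difference passed the test towards males, beside 10.3% of all genes. Among these was the larval serum protein gene Lsp1gamma, with 989, 1187, 1029 and 1548 CPM in Zhr1 males, 533, 833, 677 and 357 CPM in Zhr1 females, and 54.9 to 224 CPM in all 8 wild-type libraries (difference 1.41 ± 0.47, adjusted p = 0.0385). Of 10 digestive enzyme genes, 1 was higher in Zhr1 females and none in Zhr1 males, beside 30.1% and 39.7% of all genes. Beside the muscle and eye values stand the summed oocyte genes, at 2658 to 3567 CPM in Zhr1 females against 1389 to 1961 CPM in wild-type females. CPM is a share of a library, and the part of the ovarian RNA in them was not tested.

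Mitochondrial genes were mostly male-biased in Zhr1. Of 15 tested genes of the mitochondrial genome, 12 were higher in Zhr1 males and none in Zhr1 females, beside 39.7% and 30.1% of all genes, and none was called in wild type. The difference passed the test towards males for 4 of the 15, beside 10.3% of all genes, and did not pass for the other 11. mt:CoIII, a cytochrome oxidase subunit gene chosen after its values were seen, had 7860.4, 6052, 7646 and 4724 CPM in Zhr1 males, against 3836, 3955, 3257 and 2849 CPM in Zhr1 females. Wild-type males had 3229, 5088, 3781 and 3492 CPM, against 4183, 4531, 3591 and 4575 CPM in wild-type females. Here the Zhr1 males were high, with the sexes overlapping in wild type (difference 1.03 ± 0.23, adjusted p = 0.00478).

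Genes annotated to the Y chromosome differed between the genotypes in female RNA. The annotation places them by the reference assembly, and whether the Zhr1 X carries Y-derived sequence, such as Su(Ste) or rDNA, cannot be told from count tables and was not tested. Of 113 genes annotated to it, 73 had a count in at least 1 of the 16 libraries and 25 were abundant enough to test. In Zhr1, 15 of the 25 were higher in males and 4 in females, beside 39.7% and 30.1% of all genes. In wild type 22 were higher in males and none in females, beside 31.7% and 30.9% of all genes. For 12 of the 25 the difference passed the test, all towards females, beside 13.6% of all genes. Summed over all Y-annotated genes the level was 219 to 260 CPM in Zhr1 males and 32.5 to 44.4 CPM in Zhr1 females, against 145 to 173 CPM and 1.70 to 2.05 CPM in wild-type males and females. Of the 113 genes, 64 had a count in Zhr1 males and 52 in Zhr1 females, against 59 and 9 in wild-type males and females.

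The largest Y signal in Zhr1 females was that of Suppressor of Stellate, Su(Ste), a tandem array of near-identical copies whose piRNAs silence the X-linked Stellate genes in testis. Summed over its 27 genes placed on the Y, Su(Ste) had 142, 112, 109 and 93 counts in Zhr1 males, against 643, 567, 544 and 542 counts in Zhr1 females. Wild-type males had 128, 97, 116 and 78 counts, against 0, 1, 0 and 0 counts in wild-type females. On the CPM scale this was 8.41, 7.41, 6.09 and 7.06 CPM in Zhr1 males and 40.03, 30.8, 28.5 and 37.5 CPM in Zhr1 females, so that females were the higher sex in Zhr1 and near 0 in wild type. Most counts fell to Su(Ste):CR42430 (chromosome Y, 916438 to 917820), with 5.27, 4.04, 3.19 and 3.72 CPM in Zhr1 males, against 31.8, 24.5, 22 and 28.7 CPM in Zhr1 females. Its log2 fold change was −2.72 ± 0.19 in Zhr1 (adjusted p = 7.61e-09). In wild type it was at least 13.6-fold higher in males, whose values were 1.02 to 1.82 CPM, and the difference had an adjusted p of 1.37e-07. Of the 6 Su(Ste) genes of the Y tested, 4 were higher in Zhr1 females and 5 in wild-type males, beside 30.1% and 31.7% of all genes. For 5 the difference passed the test towards females, beside 13.6% of all genes. Counts were made without multiply mapped reads and without strand, so the array is under-counted, its copies are uncertain, and sense and antisense RNA of the array are not told apart. Another 2 tested Su(Ste) genes lie on unplaced scaffolds and are not in these sums. Su(Ste):CR42439 had 34, 17, 18 and 20 counts in Zhr1 males, against 134, 106, 128 and 83 counts in Zhr1 females, none in wild-type females and 15 to 34 in wild-type males, with a log2 fold change of −2.23 ± 0.28 in Zhr1 (adjusted p = 4.21e-06). Su(Ste):CR42433 averaged 0.331 CPM in Zhr1 males and 0.680 CPM in Zhr1 females, and its sex difference in Zhr1 was not called (adjusted p = 0.0653).

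The male fertility factors of the Y, by contrast, were male genes in both genotypes. Of 12 tested, 11 were higher in Zhr1 males and 12 in wild-type males, beside 39.7% and 31.7% of all genes. Their summed counts were 2991, 2685, 3113 and 2712 in Zhr1 males and 35, 31, 22 and 24 in Zhr1 females, against 4778, 3696, 4701 and 3381 in wild-type males and 0, 7, 3 and 3 in wild-type females. As a share of the male mean of CPM, single females held 0.63 to 1.19% in Zhr1 and 0 to 0.17% in wild type. This is below the share of spermatid and sperm RNA in Zhr1 females (1.53 to 1.805%), and whether it is RNA of male tissue in these libraries was not tested. The Su(Ste) level, by comparison, was higher in every Zhr1 female than in any Zhr1 male.

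The fertility genes differed among themselves in female counts. The dynein heavy chain gene kl-5 had 771, 685, 828 and 766 counts in Zhr1 males, against 0, 0, 0 and 2 in Zhr1 females, and no difference from wild type was called (adjusted p = 0.905). The dynein gene kl-3 had 617, 596, 639 and 538 counts in Zhr1 males, against 9, 7, 4 and 6 in Zhr1 females, and none in any wild-type female. On the CPM scale kl-3 had 36.5, 39.4, 35.7 and 40.8 in Zhr1 males, against 0.56, 0.38, 0.21 and 0.415 in Zhr1 females, a log2 fold change of 6.61 ± 0.18. It was at least 341-fold higher in wild-type males, and the difference had an adjusted p of 0.000101. kl-2 had 35.6, 33.3, 37.9 and 38.6 CPM in Zhr1 males, against 0.872, 0.868, 0.525 and 0.138 CPM in Zhr1 females, with a difference of −2.49 ± 0.58 (adjusted p = 0.00614). The genes ORY, CCY, PRY and Ppr-Y had no count in any Zhr1 female and were at least 23.5, 65.1, 8.8 and 16.7-fold higher in Zhr1 males. FDY, a Y gene that arose by duplication of vig2, had 5.51, 6.55, 4.58 and 7.51 CPM in Zhr1 males, against 0.747, 0.434, 0.21 and 0.83 CPM in Zhr1 females (difference adjusted p = 0.00237). The array copy Mst77Y-7 had 379, 452, 414 and 380 counts in Zhr1 males, against 7, 14, 10 and 14 in Zhr1 females (difference adjusted p = 0.000616). The other copies and the autosomal parents of FDY and Mst77Y-7 are close in sequence, so their counts are uncertain.

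Pp1-Y1, a protein phosphatase gene of the Y, was nearly without RNA in Zhr1 males. It had 0, 2, 0 and 0 counts in Zhr1 males and none in Zhr1 females, against 54, 32, 47 and 48 counts in wild-type males and none in wild-type females. The wild-type males were at least 13.6-fold above their females, and the Zhr1 sex difference was not called (adjusted p = 0.163). Its paralog Pp1-Y2 had 232, 184, 213 and 196 counts in Zhr1 males, against 0, 0, 0 and 2 in Zhr1 females, and so kept its male RNA.

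**Figure D3:**
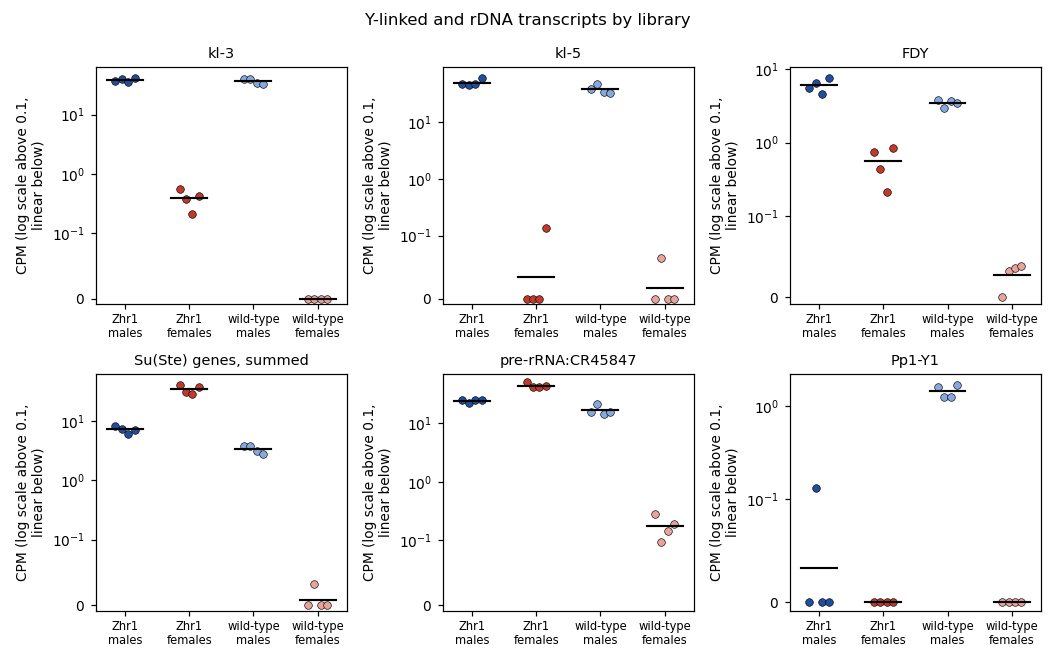
CPM in each library (points, with a line at the group mean) of kl-3, kl-5, FDY, the summed Su(Ste) genes, pre-rRNA:CR45847 and Pp1-Y1, on an axis that is logarithmic above 0.1 and linear below it, with Zhr1 males, Zhr1 females, wild-type males and wild-type females from left to right. Su(Ste) and pre-rRNA are higher in Zhr1 females than in Zhr1 males and near 0 in wild-type females, kl-5 is at or near 0 in females of both genotypes, and Pp1-Y1 is high in wild-type males and at or near 0 in the other groups.

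The ribosomal DNA transcript reversed like Su(Ste). Ribosomal genes lie in tandem arrays on the X and the Y, and pre-rRNA:CR45847 is placed on an rDNA contig (66807 to 74924). It had 24.6, 21.9, 25.1 and 25.3 CPM in Zhr1 males, against 49.9, 41.9, 41.7 and 42.4 CPM in Zhr1 females. Wild-type males had 15.8, 21.7, 14.3 and 15.4 CPM, against 0.28, 0.0978, 0.144 and 0.194 CPM in wild-type females. Its log2 fold change was −0.86 ± 0.13 in Zhr1 and 6.52 ± 0.21 in wild type, a difference of −7.38 ± 0.25 (adjusted p = 1.13e-11). rRNA was depleted in the libraries and filtered from the reads, and units of the array are near-identical, so these counts are a remainder and do not measure rRNA.

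The 8 genes of largest difference either way were taken over all genes, those of the Y included, and some that lie off the Y are given here. Towards males, CG13675 (chromosome 3L, 8160315 to 8165518) had 14.8, 17, 13.9 and 20.2 CPM in Zhr1 males, against 0.249, 0.326, 0.315 and 0.277 CPM in Zhr1 females. In wild type it had at most 0.722 CPM in any of the 8 libraries. The difference was 5.80 ± 0.54 (adjusted p = 8.13e-06), and the Zhr1 males were the high group. CG42782 had 29.7, 30.6, 26 and 27.1 CPM in Zhr1 males, against 0, 0, 0.0525 and 0 CPM in Zhr1 females, and 0.983 to 2.81 CPM in wild-type males (difference adjusted p = 0.0282). The antimicrobial peptide gene Mtk rested on a single library, with 2.07, 1.52, 6.26 and 81.5 CPM in Zhr1 males, against 4.92, 6.134, 1.47 and 2.56 CPM in Zhr1 females. Without Zhr1 male 4 its log2 fold change in Zhr1 was −0.18 in place of 2.57.

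Towards females, 3 genes had RNA in Zhr1 females and were at or near 0 in wild-type females. CG7213 (chromosome 3L, 8231814 to 8240601) had 12, 7.28, 8.44 and 11.8 CPM in Zhr1 males, against 12, 17.8, 12.9 and 14.3 CPM in Zhr1 females. Wild-type males had 4.8, 3.87, 3.57 and 6.3 CPM, against 0.245, 0.0652, 0 and 0 CPM in wild-type females. It was thus male-biased in wild type and at like levels in both sexes of Zhr1, with no sex difference called there (−0.53, adjusted p = 0.0798) and a difference of −6.30 ± 0.55 (adjusted p = 4.06e-06). PPYR1 (chromosome X, 15243859 to 15244913) had 2.55, 2.01, 1.52 and 2.35 CPM in Zhr1 females, against 0, 0, 0.0722 and 0 CPM in wild-type females, while males had 8.35 to 12.3 CPM in Zhr1 and 6.16 to 8.65 CPM in wild type (adjusted p = 5.53e-06). CG9106 (chromosome X, 15271036 to 15272405) had 29.6, 34.9, 32 and 38.6 CPM in Zhr1 males, against 0.747, 1.19, 0.315 and 0.761 CPM in Zhr1 females. Wild-type females had none and wild-type males were at least 256-fold higher (difference adjusted p = 0.000116).

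By chromosome, sex calls on the X leaned towards females and those on the autosomal arms towards males. On the X, 29.98% of tested genes were higher in Zhr1 males and 42.5% in Zhr1 females, while on 2L, 2R, 3L and 3R 39.2 to 45.0% were higher in males and 25.8 to 28.6% in females. The mean log2 level of 2168 X genes, taken relative to 11441 genes of the autosomal arms in each library, was lower in males by 0.58 in Zhr1 and 0.51 in wild type. The difference was −0.07 (exact permutation of genotype labels within each sex, two-sided, adjusted over 6 sets, adjusted p = 0.0343). It no longer passed without any of Zhr1 male 4, Zhr1 females 3 and 4 and wild-type females 2, 3 and 4, with values of −0.0810 to −0.0628 without each library in turn. Within either genotype the sexes separated fully in all 6 sets, at the smallest p that 4 against 4 libraries allow (exact permutation, 0.0286).

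Genes sorted by the study into 4 bins of MSL binding, from unbound or weak (bin 1) to strong (bin 4), differed in this. Bin 4 (191 genes) was lower in males by 1.50 in Zhr1 and 1.19 in wild type, a difference of −0.31 (exact permutation, adjusted p = 0.00245). Bin 3 (431 genes) was lower by 1.39 and 1.18, a difference of −0.22 (adjusted p = 0.00735). For bins 1 and 2 the sex differences were −0.26 and −0.54 in Zhr1 and −0.22 and −0.63 in wild type, and neither change passed the test (exact permutation, adjusted p = 0.419 and 0.0753). Leaving out each library in turn kept bin 4 between −0.348 and −0.287 and bin 3 between −0.249 and −0.191. The sizes of the sex differences depended on the measure. With counts summed over genes they were −0.756 in Zhr1 and −0.408 in wild type for bin 4. For bin 3 they were −0.569 and −0.366, and for the X −0.435 and −0.335. The differences between genotypes were then −0.348 for bin 4 and −0.203 for bin 3 (exact permutation, adjusted p = 0.00367 and 0.00245). With a median over genes the bin 3 difference was −0.0914 and no longer passed (exact permutation, adjusted p = 0.187), while bin 4 was at −0.319 (adjusted p = 0.00245). For bin 1 the sex difference turned positive when a median over genes was used (0.719 in Zhr1 and 0.691 in wild type), so its direction is that of a mean over genes of very unequal levels. When only genes under 2-fold between the wild-type sexes were kept, the sex differences of the X, bin 3 and bin 4 were −0.230, −0.413 and −0.526 in Zhr1, where none passed after adjustment (exact permutation, adjusted p = 0.0571 each), and −0.134, −0.184 and −0.226 in wild type, a filter set by the wild-type values themselves. The 96 genes of chromosome 4 were lower in males by 0.65 in Zhr1 and 0.71 in wild type as a mean of logs, but the Zhr1 value was 0.0426 when CPM were summed over the genes and 0.0837 among genes under 2-fold, so that no direction is given for this chromosome.

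Repeats were counted at each annotated place of a name, and 757 repeat names were abundant enough to test. In Zhr1, 124 names (16.4%) were higher in males and 122 (16.1%) in females, against 86 (11.4%) and 89 (11.8%) in wild-type males and females. With library size alone 32.95% of the Zhr1 calls were male in place of 50.4%. The names shared 68 calls towards males (54.8% of the Zhr1 list) and 56 towards females in both genotypes, and the log2 fold changes were related across names (Pearson's r 0.80, Spearman's rho 0.61, n = 757, as a description). The difference passed the test for 13 names (1.72%) towards males and 22 (2.91%) towards females. Names say what the annotated copies resemble and often come from other Drosophila species, and reads of overlapping genes are counted too.

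The most male-biased name in Zhr1, among those of at least 10 CPM in the higher sex, overlapped a gene. R2-1_DWi had 207, 225, 208 and 259 CPM in Zhr1 males, against 0, 0.217, 0 and 0.138 CPM in Zhr1 females. Its single annotated place (chromosome 3R, 24363499 to 24363547, 49 bp) lies inside CG33340, a gene chosen after its values were seen, whose mean was 875.6 CPM in Zhr1 males, against 0.239 CPM in Zhr1 females. Its counts are thus not told apart from that gene's RNA. Gypsy1-I_Dmoj, with 16 annotated places, had 354, 244, 599 and 593 CPM in Zhr1 males, against 0.311, 0.326, 0.84 and 0.623 CPM in Zhr1 females, and a similar bias in wild type (9.71 ± 0.44 and 8.44 ± 0.40). R1_DSi and BEL-21_DWil-I, of the R1 and BEL families, were 2.70 ± 0.17 and 2.39 ± 0.11 higher in Zhr1 males on the log2 scale, near the wild-type values of 2.36 each. Some annotated places of R1_DSi lie inside the Y gene kl-3, so reads of that gene may be among its counts. The R1 names did not share a direction. R1_DSe was higher in Zhr1 males (4.02 ± 0.30), while R1_DM was higher in females, at −1.28 ± 0.16 in Zhr1 and −0.71 ± 0.15 in wild type. R1_DSe has 27.3% of its annotated bases on the Y, with places inside the Y genes kl-3, kl-5 and WDY. Reads of those genes may be among its counts, so its direction may not be that of an R1 element.

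Copia, an LTR retrotransposon, had the largest female bias in Zhr1 among names of at least 10 CPM in the higher sex. Its internal part, Copia_I-int, had 252, 245, 216 and 258 CPM in Zhr1 males, against 3294, 1273, 1279 and 936 CPM in Zhr1 females. Wild-type males had 309.9, 336, 294 and 264 CPM, against 227, 271, 251 and 206 CPM in wild-type females. Every Zhr1 female was above all 12 other libraries, and female 1 was highest. The log2 fold changes were −2.80 ± 0.26 in Zhr1 and 0.33 ± 0.24 in wild type, a difference of −3.14 ± 0.35 (adjusted p = 2.28e-06). Its terminal repeats, Copia_LTR, moved alike, with 759.8, 371, 353 and 298 CPM in Zhr1 females, 47.7 to 59.1 CPM in Zhr1 males and a difference of −3.07 ± 0.31 (adjusted p = 9.76e-07).

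Other elements shifted towards females as well. R2_DM, the element that inserts into ribosomal genes, had 11.5, 15.9, 16.4 and 19 CPM in Zhr1 males, against 72, 39, 31.7 and 30 CPM in Zhr1 females, with 6.81 to 8.73 CPM in the 8 wild-type libraries (difference −1.56 ± 0.30, adjusted p = 0.00179). It was high in the same sex as the pre-rRNA transcript. Gypsy12_LTR had 227, 257, 251 and 316 CPM in Zhr1 males, against 355, 289.9, 393 and 421 CPM in Zhr1 females. Wild-type males had 249, 208, 228 and 159.8 CPM, against 80.1, 88.3, 70.7 and 71.3 CPM in wild-type females. The direction was thus opposite in the genotypes, −0.47 ± 0.14 in Zhr1 and 1.44 ± 0.14 in wild type (difference −1.92 ± 0.20, adjusted p = 1.05e-06). Gypsy-14_DBi-I was low in males of Zhr1, at 2.78 to 3.9 CPM, against 12.9 to 17.5 CPM in wild-type males (difference −2.55 ± 0.30, adjusted p = 3.98e-06). Pifo_I-int, an element of the gypsy group, was female-biased in both, by −2.44 ± 0.20 in Zhr1 and −1.31 ± 0.19 in wild type (difference −1.13 ± 0.27, adjusted p = 0.0132).

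Towards males, Gypsy6-I_Dmoj had the largest difference and the most uneven libraries. It had 123, 12.8, 589 and 683 CPM in Zhr1 males, against 1.43, 6.35, 2.57 and 78.2 CPM in Zhr1 females. Wild-type males had 15.6, 52.2, 30.1 and 18.3 CPM, against 745, 83.1, 924 and 236 CPM in wild-type females. The sexes overlapped in Zhr1, with female 4 above male 2, and did not overlap in wild type, where the order was the opposite (4.01 ± 1.09 and −4.10 ± 1.09, difference 8.11 ± 1.54, adjusted p = 0.0015). IDEFIX_I-int, a gypsy-group element, had 279, 329, 395 and 439.6 CPM in Zhr1 males, against 148, 148, 172 and 177 CPM in Zhr1 females. Wild-type males had 499, 463, 427 and 371 CPM and 369.7 to 478 CPM in wild-type females, with overlap. Its difference was 1.13 ± 0.19 (adjusted p = 0.000319). Copia2_I-int, Chimpo_I-int, DM297_I-int and GTWIN_I-int shifted by 1.20, 1.10, 1.08 and 1.10 in the same direction, GTWIN_I-int without a sex difference in Zhr1 (0.05, adjusted p = 0.812).

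**Figure D4:**
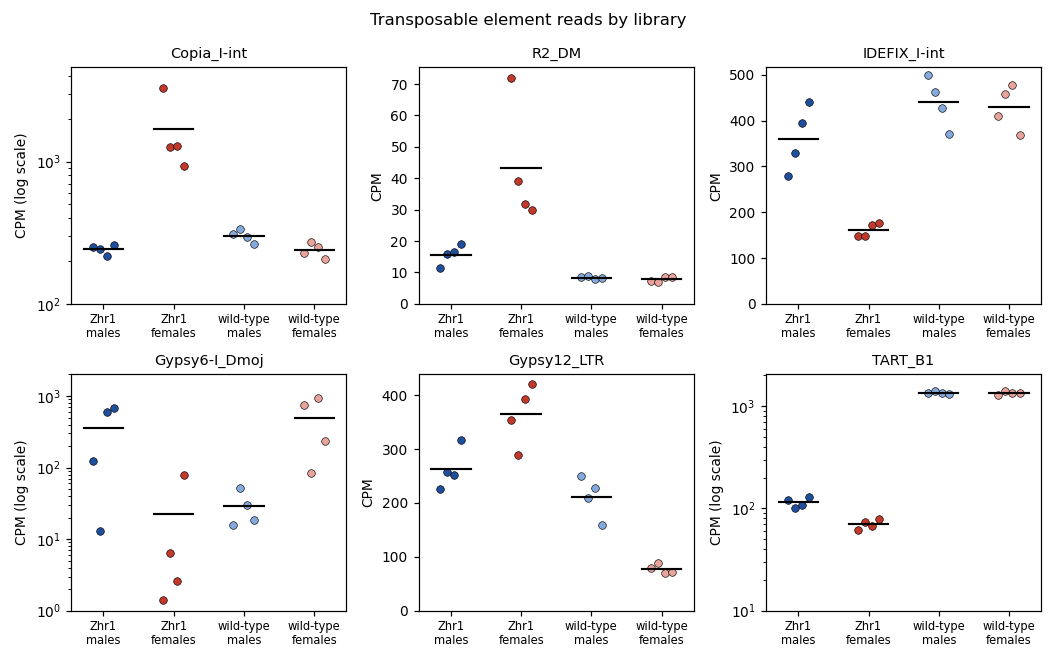
CPM in each library (points, with a line at the group mean) of Copia_I-int, R2_DM, IDEFIX_I-int, Gypsy6-I_Dmoj, Gypsy12_LTR and TART_B1, with logarithmic axes for Copia_I-int, Gypsy6-I_Dmoj and TART_B1, and Zhr1 males, Zhr1 females, wild-type males and wild-type females from left to right. The Zhr1 females are the high group for Copia_I-int (936 to 3294 CPM) and R2_DM (30 to 72 CPM), and TART_B1 is near 1300 CPM in both wild-type sexes and at most 129 CPM in Zhr1.

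The share of a name's annotated bases that lie on the Y moved with its bias in both genotypes. Of 488 names with none on the Y, 52 were higher in Zhr1 males and 87 in Zhr1 females, against 35 and 59 in wild type. Of 53 names with 25 to 75% of their bases there, 21 were higher in Zhr1 males and 4 in Zhr1 females, against 17 and 4 in wild type. The telomeric retrotransposons HeT-A, TART and TAHRE maintain fly chromosome ends in place of telomerase. HETA had 638, 636, 729.9 and 819 CPM in Zhr1 males, against 401, 651, 504 and 591 CPM in Zhr1 females, overlapping, with a log2 fold change of 0.39 ± 0.13 (adjusted p = 0.024) that 6 of the alternatives did not call. TART_B1 had 120.2, 100.4, 108 and 129 CPM in Zhr1 males, against 61.8, 73.6, 67.3 and 78.2 CPM in Zhr1 females, and 1271 to 1402 CPM in the 8 wild-type libraries. TART_B1 had a log2 fold change of 0.71 ± 0.09 in Zhr1 and 0.01 ± 0.09 in wild type (difference 0.69 ± 0.13, adjusted p = 0.00132), at a far lower level in Zhr1. TART-A had 3679 to 4473 CPM in Zhr1 males and 3917 to 4927 CPM in Zhr1 females, against 821 to 977 CPM and 784 to 827 CPM in wild-type males and females, and TAHRE had no called sex difference in either genotype.

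The satellite blocks are 652 places of similarity to the satellite, and a read was counted in full at each place it matched, so that blocks share reads and are not independent. Of 255 tested, 45 (17.6%) were higher in Zhr1 males and 3 (1.18%) in Zhr1 females, against 97 and 84 in wild-type males and females (together 71.0%). Of the 45, 44 were also higher in wild-type males. The filter ran over all 4 groups, so blocks without reads in Zhr1 were among the 255. The median log2 sex difference of the 255 was 0 in Zhr1. A block without reads in Zhr1 could not be called there. These shares therefore do not compare the strength of the sex bias between the genotypes. No difference between the genotypes passed edgeR's test in either direction (0.00%), with 17 blocks (6.67%) towards males and 8 (3.14%) towards females at an unadjusted p below 0.05, and 6 and 24 by DESeq2 at an adjusted p below 0.05. More blocks were without reads in Zhr1: 352 of 652 had 0 counts in all Zhr1 males and 370 in all Zhr1 females, against 17 in wild-type males and 26 in wild-type females. Most of these were on unplaced scaffolds, at 338 in Zhr1 males and 349 in Zhr1 females, against 12 and 15 in wild type. On the X the numbers were 10 and 8 against 4 and 6, and on 3L 2 and 9 against 0 and 3. The Zhr1 libraries were the shallower ones, and the part of depth in these counts was not tested.

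Blocks on 3L were male in both genotypes. Summed per library they had 109.6, 107, 133 and 162 CPM in Zhr1 males, against 28.6, 38.4, 37.6 and 42.3 CPM in Zhr1 females. Wild-type males had 81.2, 72.8, 70.4 and 53.9 CPM, against 29.4, 33.3, 30.3 and 24.0 CPM in wild-type females. The sexes did not overlap in either genotype, with log2 differences of 1.79 ± 0.18 and 1.24 (exact permutation, p = 0.0286 in Zhr1, the smallest possible, 0.0571 when adjusted over the 4 locations). The change of 0.55 ± 0.24 between the genotypes did not pass the test (exact permutation of genotype labels within each sex, p = 0.2). The higher mean level of Zhr1 in both sexes widened the spread of that test, so it cannot decide whether the sex differences were equal. Of the 37 tested blocks on 3L, 8 were higher in Zhr1 males, beside 17.6% of all tested blocks, and 17 in wild-type males, none in females.

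The study could not exclude that some satellite variants without an assigned chromosome come from the region deleted in Zhr1. Blocks on unplaced scaffolds separated the sexes in Zhr1 and overlapped in wild type. They had 163, 155, 191 and 215 CPM in Zhr1 males, against 50.5, 58.8, 67.2 and 62.1 CPM in Zhr1 females. Wild-type males had 304, 275, 297 and 208 CPM, against 239.8, 268, 289.7 and 245 CPM in wild-type females. The Zhr1 females were lowest of the 4 groups and the wild-type sexes overlapped. The log2 difference was 1.596 ± 0.14 in Zhr1 (exact permutation, p = 0.0286, 0.0571 adjusted) and 0.04 in wild type (p = 0.8). The change between genotypes was 1.55 ± 0.20, with a permutation p of 0.0473 that did not hold after adjustment (0.189). That permutation exchanged genotype labels within each sex, and the lower mean level of Zhr1 in both sexes widened its spread. It therefore cannot decide whether the sex differences of the genotypes were equal. Of 189 tested unplaced blocks, 35 were higher in Zhr1 males and 2 in Zhr1 females, shares near the 17.6% and 1.18% of all tested blocks. In wild type 78 were higher in males and 82 in females. Blocks without reads in Zhr1 were among those tested and could not be called there.

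Blocks on the X, which include the euchromatic tandems that Zhr1 keeps, did not separate the sexes in Zhr1. Their sum was 26.8 ± 2.7 CPM in Zhr1 males and 28.9 ± 5.2 CPM in Zhr1 females, against 22.9 ± 1.4 CPM in wild-type males and 29.6 ± 3.9 CPM in wild-type females (SD, n = 4 each). The log2 difference was −0.09 in Zhr1 (exact permutation, p = 0.6) and −0.36 in wild type (exact permutation, p = 0.0286, 0.0571 adjusted). Of 22 tested blocks there, 2 were higher in Zhr1 males and 1 in Zhr1 females, beside 17.6% and 1.18% of all tested blocks. The block higher in females lies at 9005789 to 9006128 of the X, with 0.415, 0.331, 0.168 and 0.0759 CPM in Zhr1 males, against 0.747, 0.76, 0.682 and 0.623 CPM in Zhr1 females (−1.46 ± 0.52, adjusted p = 0.0449, lost under 15 of the alternatives). The 2L blocks were few, at means of 4.34 CPM in Zhr1 males and 5.95 CPM in Zhr1 females, with no separation (−0.50, exact permutation, p = 0.143).

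The blocks of largest fold were on unplaced scaffolds and rested on few reads. The block at bases 1 to 1555 of scaffold 211000022280196 had 4.15, 7.02, 5.48 and 8.88 CPM in Zhr1 males, against 0, 0.0543, 0.105 and 0 CPM in Zhr1 females (adjusted p = 4.83e-13, with 3 counts in the 4 females together), and its bias in wild type was 3.48 ± 0.41. The block at bases 5 to 1184 of scaffold 211000022280177 had 6.51, 6.02, 8.1 and 10.6 CPM in Zhr1 males, against 0.0623, 0.163, 0.157 and 0.0692 CPM in Zhr1 females. Another 3 blocks of scaffold 60 had no count in any Zhr1 female and were at least 8.74, 2.78 and 1.74-fold higher in Zhr1 males.

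**Figure D5:**
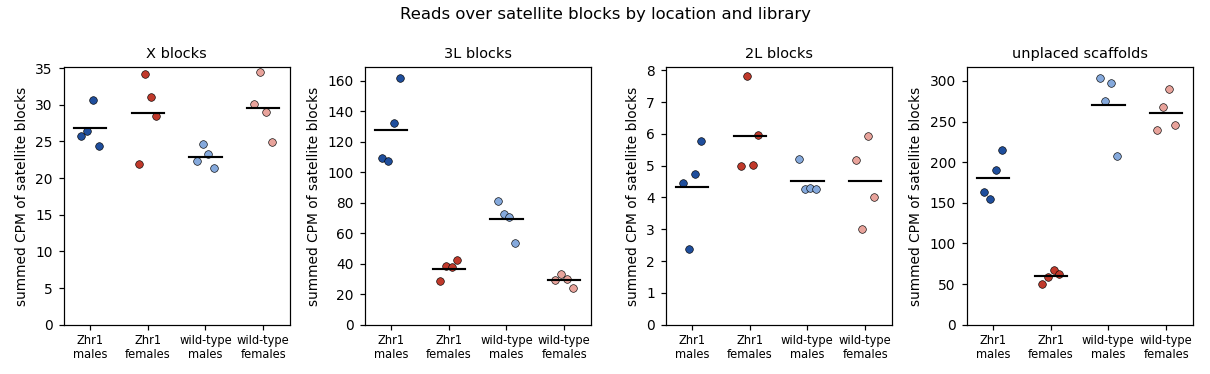
Summed CPM of satellite blocks on the X, 3L, 2L and unplaced scaffolds in each library (points, with a line at the group mean), Zhr1 males, Zhr1 females, wild-type males and wild-type females from left to right. On unplaced scaffolds the Zhr1 females (50.5 to 67.2 CPM) lie below the Zhr1 males (155 to 215 CPM), while the wild-type sexes overlap.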

How the data were processed

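Whole-fly RNA of Zhr1 and wild-type males and females (4 libraries each) was sequenced by the authors as paired reads after rRNA depletion (Ovation kit for Drosophila). Reads were trimmed (Trimmomatic 0.36), filtered for rRNA (SortMeRNA 2.1b), aligned with STAR 2.5.4b to release 6 and counted with featureCounts 1.6.3, without strand. The deposited counts are raw counts: per gene without multiply mapped reads, per repeat name (RepeatMasker 4.0.7) at each place, and per block of the 359-bp satellite family, known as 1.688 (BLAST hits merged within 20 bp and of at least 269 bp) as single reads counted in full at each place. All columns used were matched to samples by name.

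The tables held 17490 genes, 652 blocks and 1152 repeat names, of which 23 satellite, rRNA and similar names were left out of the repeat tests. Counts were filtered by filterByExpr and fitted with edgeR 4.0.16 (R 4.3.3, TMM, quasi-likelihood, 1 mean per group over 16 libraries); repeats and blocks used gene library sizes and factors. Threshold: Benjamini-Hochberg adjusted p below 0.05. The SE of an edgeR estimate was its absolute value over the square root of the quasi-likelihood F statistic. It is approximate, and the SE of a difference does not follow from those of its parts. Sums and chromosome sets were tested by two-sided exact permutation (70 arrangements within a genotype, 4900 for the difference, smallest p 0.0286 and 0.000408). The permutation for the difference exchanged genotype labels within each sex, so a difference in level between the genotypes widens its spread. A group at 0 was set to 3 counts per library for bounds, which cover counting error only. In simulated data over 13753 genes, 62, 70 and 68 genes were given 1.5-, 2- and 4-fold sex differences and the others none. Of these, 38.7, 80 and 94.1% were recovered within Zhr1, with 5.26% of calls false. For differences of that size between the genotypes' sex effects, 59, 60 and 81 genes were changed. Here 25.4, 50 and 81.5% were recovered, with 3.48% false. Far fewer genes differed in the simulation than were called in the data, so these are not the recovery rates of the reported tests.

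Members and lists were chosen with earlier results of these data known. Named genes were members of the lists, every Y-linked gene, the 8 called genes of largest fold either way with a mean of at least 10 CPM in the higher sex, the 8 most abundant called genes of at least 4-fold, and the 8 of largest difference either way with at least 10 CPM in 1 group. Named repeats were 8 of largest fold and 6 of largest difference either way and the telomeric elements. Named blocks were 5 of largest fold either way. Alternatives were other scalings, filters, fold limits, DESeq2 1.42.0, sample sets, thinned counts and each library left out. One neuron gene of the list was not matched.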

Additional observations from a re-analysis of the deposited data

Results flagged for a closer look

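Sex effects that differed between Zhr1 and wild type by the test of the difference (Zhr1 minus wild type, log2) were −0.49 for msl-1, −0.67 for mof and −0.41 for D1. Among male genes they were 0.85 for S-Lap1, 1.77 for loopin-1, 0.92 for Ebp, 1.65 for Est-6 and −2.20 for Mst87F. Among female genes they were −1.11 for CycB, −1.07 for vas, −1.83 for exu, −8.56 for Cp18 and −6.64 for CG15570. Somatic and mitochondrial genes had 0.96 (Act88F), 0.48 (Mhc), 0.73 (ninaE) and 1.03 (mt:CoIII), and CG13675, CG7213 and Mtk had 5.80, −6.30 and 4.64. On the Y and in rDNA, kl-2 had −2.49 and pre-rRNA:CR45847 −7.38. For chromosome sets the differences were −0.0735 for the X, −0.218 for bin 3 and −0.310 for bin 4.

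Where a group was at or near 0 counts, the difference is given by its adjusted p alone from edgeR's test: 0.0226 for CG31948, 0.00347 for schuy, 0.0282 for CG42782, 0.000101 for kl-3, 0.00237 for FDY, 0.000616 for Mst77Y-7, 1.37e-07 for Su(Ste):CR42430, 0.000116 for CG9106 and 5.53e-06 for PPYR1. Repeat names differed by 8.11 (Gypsy6-I_Dmoj), 1.13 (IDEFIX_I-int) and 0.69 (TART_B1) towards males, and by −3.14 (Copia_I-int), −3.07 (Copia_LTR), −1.56 (R2_DM), −1.13 (Pifo_I-int), −1.92 (Gypsy12_LTR) and −2.55 (Gypsy-14_DBi-I) towards females.

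Single libraries stood far from the other 3 of their group by Dixon's test, which chance alone meets in about 1 in 20 groups. Zhr1 male 2 held 4.04 CPM of osk, 4.77 CPM of Vm26Aa, 0.993 CPM of Cp36 and 2.12 CPM of Cp18, and a bin 1 level of −1.17. Zhr1 male 4 held 486 CPM of bol, 81.5 CPM of Mtk, 58.1 CPM of kl-5 and 24925 CPM of Mhc, and Zhr1 male 3 held 1523 CPM of Acp36DE. Zhr1 female 1 held 3294 CPM of Copia_I-int, 759.8 CPM of Copia_LTR and 49.9 CPM of pre-rRNA, and a bin 1 level of −1.003, Zhr1 female 2 held 719 CPM of CycB, and Zhr1 female 4 held 78.2 CPM of Gypsy6-I_Dmoj. Wild-type male 2 held 7.23 CPM of osk, 57.7 CPM of Yp1, 2.29 CPM of Vm26Aa, 1.34 CPM of Send1, 344 CPM of Est-6 and 786 CPM of ninaE, and wild-type male 1 held 5.22 CPM over 2L blocks. Wild-type female 2 held 2.93 CPM of S-Lap1 and 21.4 CPM of Pifo_I-int.

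Of the satellite and ribosomal repeat names kept out of the tests, NTS_DM, the spacer of the ribosomal array, averaged 56.6 CPM in Zhr1 males and 56.6 CPM in Zhr1 females, and SSU-rRNA_Dme averaged 154 CPM in Zhr1 females, with every library above every wild-type library of the same sex.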

How the results depend on the processing

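Calling at least 4-fold changes left 2642 genes higher in Zhr1 males and 591 in Zhr1 females, 2654 and 346 in wild-type males and females, and differences of 176 towards males and 111 towards females. It left 25 and 17 repeat names in Zhr1 males and females, 24 and 8 in wild type, 1 and 5 differences, and no block (0) in Zhr1 females and 9 in wild-type females. With library size alone the gene differences were 944 towards males and 2801 towards females, and 5 blocks were higher in Zhr1 females. That number was 1 with a 1 CPM filter and 33 with factors from the block table itself. Factors from the repeat table called 136 repeat names in wild-type males, 21 differences towards males and 41 towards females, and DESeq2 called 136 and, towards females, 35. Blocks higher in wild-type females were 129 with no filter and 53 with a 1 CPM filter. Block differences were 1 towards males with no filter, 6 towards males and 24 towards females by DESeq2, and 39 towards females with the table's own factors. The cause of these changes was not tested, except that the fold limit can only remove calls.

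Among the lists, chorion genes in Zhr1 females numbered 6 with a 1 CPM filter, fat body genes in Zhr1 males 6 when the Zhr1 groups were fitted alone, and neuron genes in Zhr1 males 2 with library size alone. Heterochromatin differences numbered 8 with RLE factors, no filter or a 1 CPM filter and 9 with library size or DESeq2. Muscle differences numbered 4 with RLE factors, library size, no filter, a 1 CPM filter or thinned wild-type counts, and photoreceptor differences 4 with library size. The digestive gene call was 0 in the 2-group fit, with the replicate block and by DESeq2, and 2 without both male libraries 2, an alternative chosen after seeing the data. That last alternative gave 5438 and 4094 genes in Zhr1 males and females.

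For chromosome sets, genes under 2-fold between the wild-type sexes gave −0.230 for the X, 0.0837 for chromosome 4, −0.105, 0.0203, −0.413 and −0.526 for bins 1 to 4 in Zhr1, and 0.0548 for chromosome 4 and −0.0530 for bin 2 in wild type. Summed counts gave chromosome 4 0.0426 in Zhr1 and −0.174 in wild type, and genes above the median level gave 0.00912 and −0.0777. The median over genes gave bin 1 0.719 in Zhr1 and 0.691 in wild type, and bin 3 a difference of −0.0914 that no longer passed (exact permutation, adjusted p = 0.187). Bin 2 had a difference of 0.109 above the median level, and bin 1 was −0.249 in Zhr1 without both male libraries 2.

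Leaving out each library in turn gave 5025 to 5543 genes in Zhr1 males, 4033 to 4277 in Zhr1 females, 4184 to 4656 and 3632 to 4330 in wild type, and differences of 922 to 1577 towards males (922 without wild-type female 2, 923 without wild-type male 4 and 934 without wild-type female 3) and 1582 to 2601 towards females. Repeat names ranged over 98 to 125 and 88 to 143 in Zhr1, 74 to 117 and 62 to 90 in wild type, and 11 to 19 and 17 to 34 for the difference (34 without wild-type male 4). The X difference ranged over −0.0810 to −0.0628, bin 1 over −0.292 to −0.241 in Zhr1 and −0.0715 to −0.0203 for the difference (called without Zhr1 female 1), and bin 2 over 0.0749 to 0.122 for the difference (called without Zhr1 male 4 or Zhr1 female 2). Summed blocks in Zhr1 ranged over 1.67 to 1.87 on 3L, −0.658 to −0.237 on 2L and 1.51 to 1.67 on unplaced scaffolds, passing the adjusted threshold without Zhr1 male 4 alone, and Mtk over −0.18 to 2.97. Blocks ranged over 45 to 50 and 0 to 4 in Zhr1 (0 without Zhr1 male 4, 1 without Zhr1 male 1 or Zhr1 female 3) and 85 to 106 and 72 to 95 in wild type.

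The replicate numbers did not pair the libraries (correlation of same-numbered deviations −0.008 to 0.104 in Zhr1 and −0.066 to 0.047 in wild type). With the replicate block, 5376 and 4075 genes were called in Zhr1 males and females, and differences of 1274 and 1702. Of the named features called, 12 of 238 genes lost the call of a Zhr1 sex difference under some alternative, 32 of 103 that of a difference from wild type, 4 of 27 repeat names and 3 of 8 blocks that in Zhr1. The Zhr1 libraries were shallower, so counts of a few reads are least certain there.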

Other observations

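Other satellite names, kept out of the repeat tests, also differed by sex, and are given as values with no test. DMSAT6 was a female signal in both genotypes, with 2.67, 4.30, 3.97 and 14.8 CPM in Zhr1 males, against 45.4, 54.5, 54.5 and 48.6 CPM in Zhr1 females, and 5.49 to 8.49 CPM in wild-type males, against 47.9 to 52.3 CPM in wild-type females. SAR_DM, a name of the 359-bp satellite family, had 328, 318, 382 and 445 CPM in Zhr1 males, against 121, 158, 162 and 157 CPM in Zhr1 females, and 294 to 417 CPM in wild-type males, against 278 to 334 CPM in wild-type females, so that the sexes were apart in Zhr1 and overlapped in wild type. RSP, the Responder satellite, had 1.01, 1.59, 1.34 and 2.05 CPM in Zhr1 males, against 6.41, 6.57, 4.30 and 6.92 CPM in Zhr1 females, and 6.36 to 9.51 CPM in wild-type males, against 11.1 to 13.3 CPM in wild-type females, with males the lower sex in both.

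Of the ribosomal names, SSU-rRNA_Dme was highest in Zhr1 females, while the sexes overlapped for NTS_DM in Zhr1. SSU-rRNA_Dme had 84.6, 66.7, 82.4 and 77.8 CPM in Zhr1 males, against 167, 149.7, 144 and 157 CPM in Zhr1 females, and 50.7 to 81.8 CPM in wild-type males, against 45.4 to 58.6 CPM in wild-type females. NTS_DM had 48.8 to 69.7 CPM in Zhr1 males, against 45.4 to 62.0 CPM in Zhr1 females, and 11.4 to 24.9 CPM in wild-type males, against 29.2 to 43.4 CPM in wild-type females.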
